A study of Mus musculus with 6 samples.

Results

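The platelet-derived growth factor (PDGF) ligands and receptors were read in all 6 arrays of a study of bladder epithelium in mice at postnatal day 7. The genes were Pdgfa, Pdgfb, Pdgfc, Pdgfd, Pdgfra and Pdgfrb. Every probe set annotated to one of them alone was taken, which gave 14 probe sets for 6 genes, of 18193 genes with such a probe set. All mice were FVB/N x C57BL/6, labelled male, and the labels name the allele B6;129P-Upk1btm1Zhang/J as the gene reported. Epithelium was freed from the bladder with trypsin and digested to single cells, and the labels divide these into DsRed-positive and DsRed-negative cells. Each group held 3 arrays, numbered 1, 2 and 5, and samples were not pooled. Sample titles mark the classes as uroplakin +ve and -ve. The labels give neither the way in which the DsRed classes were parted nor the promoter that drives DsRed. They do not tie samples to separate animals, so p-values measure only the spread between these samples, which may be technical. Sex-linked transcripts, given below, set both arrays numbered 1 apart from the others.

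PDGFs are dimeric growth factors that signal through a pair of receptor tyrosine kinases. PDGF-A and PDGF-B are cleaved inside the cell by furin-type proteases, whereas PDGF-C and PDGF-D carry a CUB domain that must be removed outside the cell before they can bind. PDGFRA binds PDGF-A, PDGF-B and PDGF-C, and PDGFRB binds chiefly PDGF-B and PDGF-D. In many organs epithelium and endothelium make ligand, and fibroblasts, interstitial cells, pericytes and smooth muscle carry the receptors.

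The reference promoters of the members are shown because ligands and receptors divided into a group that was low in DsRed-positive cells and a group that was not called, and the reader can compare the starts of genes from each. RefSeq windows (GRCm38.p6) from 250 bases before to 50 after the start were used for 4 of the 6 genes. None was used for Pdgfb or Pdgfrb. The selection of windows left out a whole chromosome, so their absence here does not show that the reference holds none. Pdgfa had 2 windows, of which the one with more CpG is printed. Capitals mark matches to any of 4 motifs searched on both strands, GGGCGG (GC box), CANNTG (E-box), CCAAT and TATAAA. The windows are Pdgfa chr5:138994895-138995194 (minus strand), Pdgfc chr3:81036166-81036465 (plus), Pdgfd chr9:6168236-6168535 (plus) and Pdgfra chr5:75152001-75152300 (plus).
Pdgfa: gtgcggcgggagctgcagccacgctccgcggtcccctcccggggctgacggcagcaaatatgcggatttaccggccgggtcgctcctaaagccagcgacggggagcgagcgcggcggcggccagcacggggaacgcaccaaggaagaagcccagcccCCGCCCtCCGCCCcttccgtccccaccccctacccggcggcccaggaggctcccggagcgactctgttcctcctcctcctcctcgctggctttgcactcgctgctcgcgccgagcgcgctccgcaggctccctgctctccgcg
Pdgfc: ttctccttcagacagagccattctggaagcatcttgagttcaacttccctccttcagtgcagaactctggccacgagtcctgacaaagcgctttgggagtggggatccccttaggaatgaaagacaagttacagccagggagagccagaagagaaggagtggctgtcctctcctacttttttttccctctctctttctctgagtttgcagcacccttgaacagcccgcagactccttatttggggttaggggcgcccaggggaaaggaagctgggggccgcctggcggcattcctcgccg
Pdgfd: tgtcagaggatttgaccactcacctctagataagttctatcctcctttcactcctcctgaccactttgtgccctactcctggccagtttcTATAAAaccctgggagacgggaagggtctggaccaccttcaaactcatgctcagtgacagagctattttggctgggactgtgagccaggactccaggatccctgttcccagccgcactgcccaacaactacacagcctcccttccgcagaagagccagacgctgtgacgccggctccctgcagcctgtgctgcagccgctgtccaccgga
Pdgfra: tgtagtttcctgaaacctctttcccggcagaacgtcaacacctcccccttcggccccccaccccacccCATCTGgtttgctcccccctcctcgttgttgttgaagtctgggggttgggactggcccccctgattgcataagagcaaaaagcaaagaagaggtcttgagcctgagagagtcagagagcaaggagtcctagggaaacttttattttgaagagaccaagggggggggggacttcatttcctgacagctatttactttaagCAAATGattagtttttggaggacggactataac

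The Pdgfa window was the richest of the 4 printed in G and C, at 73.3%, with 37 CpG, and its other window had 67.0% and 24 CpG. Pdgfc had 55.0% GC and 8 CpG, Pdgfd 56.7% and 8, and Pdgfra 51.0% and 5, against medians of 52.7% and 7 over all 32851 windows. GC boxes began at positions -93 and -86 of the printed Pdgfa window, counted from 0 at the start. None of the 3 windows of Pdgfc, Pdgfd and Pdgfra held these letters, which 35.7% of all windows hold. Pdgfra had 2 E-boxes, at positions -182 and 17, a motif found in 72.3% of windows. Pdgfd had TATAAA at -160 (13.6% of windows), Pdgfc none of the 4 motifs, and CCAAT (37.4% of windows) was in none of the 4. No motif overlapped another. These matches describe the letters only.

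Signals are given as deposited, on a linear scale, and then as log2 values after an offset of 39.84 and quantile normalization. Adding the offset shrinks the fold of probe sets near it. A control level was set for each array at the 95th percentile of 27 control probe sets to bacterial genes, and ran from 7.41 to 8.03 on the log2 scale. The median deposited signal was 272.5 to 317.2 in DsRed-negative and 174.5 to 206.5 in DsRed-positive arrays, and the hybridization spike-in level was 14.32 to 15.82 and 12.92 to 14.29 on the normalized scale. Both arrays numbered 1 stood apart in sex-linked transcripts despite the label male: Xist was 15.48 and 15.08 there and 8.08 to 8.89 in the other 4, and Eif2s3y was 5.44 and 6.32 there and 11.78 to 12.93 in the others. The fits to members and pathway genes were also made without both of these arrays. The number of arrays limits the precision.

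DsRed-positive cells had far less signal for both PDGF receptors and for the ligands Pdgfc and Pdgfd than DsRed-negative cells, while Pdgfa and Pdgfb were not called in either direction. Of the 14 probe sets, 13 passed the filter on low signal, 9 were called lower (limma, Benjamini-Hochberg adjusted across the whole array), 4 were not called and 0 were called higher. Over all 30175 probe sets tested, 17.2% were called, 8.62% lower and 8.63% higher, and 9536 had an unadjusted p under 0.05. That split, 2605 higher and 2600 lower, was 2253 and 3549 with values as deposited and 4871 and 2313 after centring arrays on their medians. The brightest probe sets of the 4 called genes had log2 changes of -6.24 to -7.05 as fitted, with 1 or 2 of the 3 DsRed-positive arrays at or below the control level in each. The same 9 probe sets were those whose groups did not overlap, all of them lower; of all tested probe sets 38.5% did not overlap, 17.5% lower and 21% higher.

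**Figure D1:**
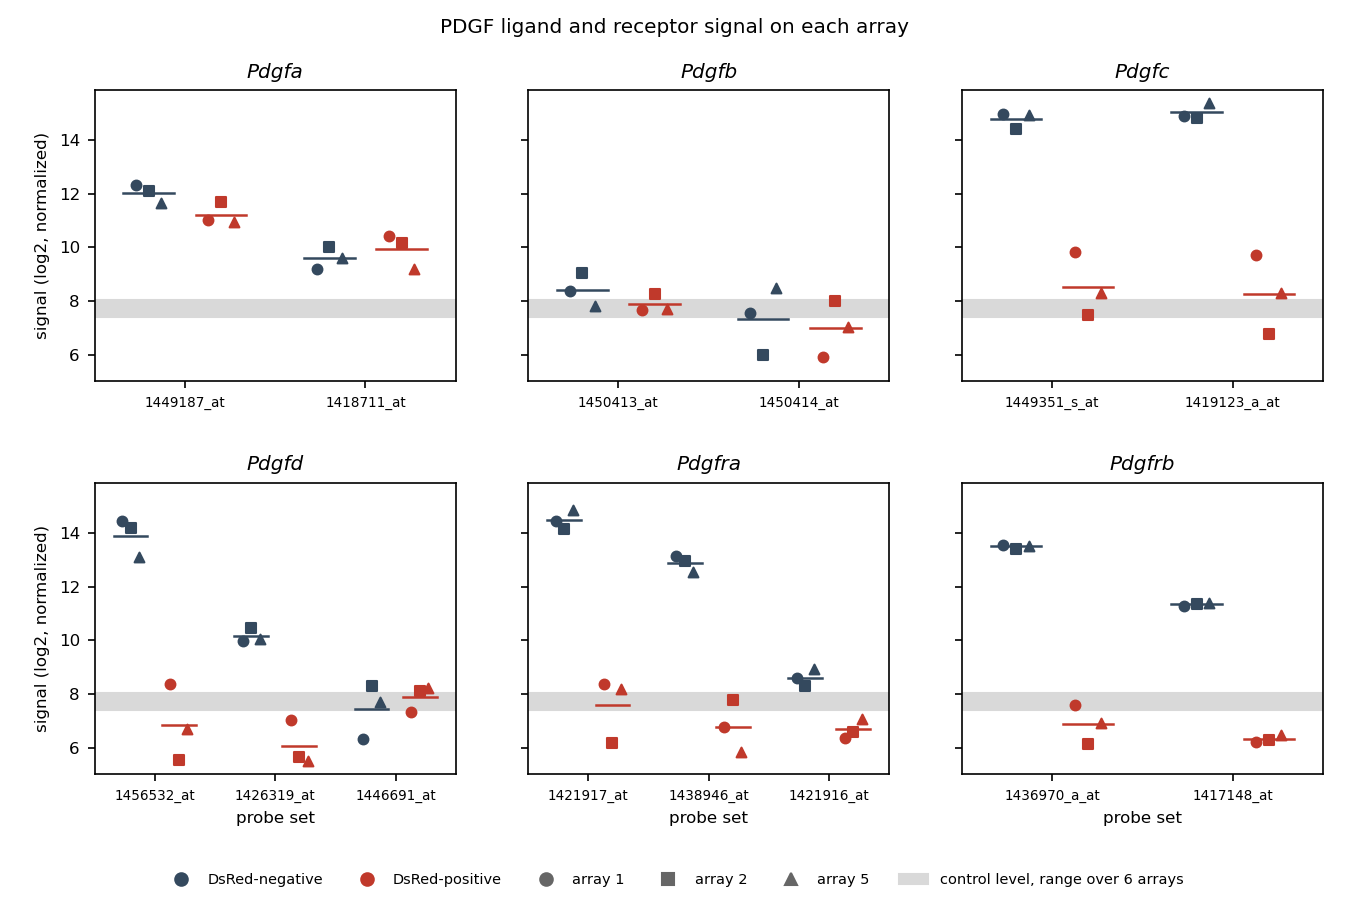
Signal of all 14 PDGF probe sets on each array (log2, normalized; bars are means of 3 arrays; the grey band is the range of the control level, 7.41 to 8.03). The DsRed-positive points of Pdgfc, Pdgfra, Pdgfrb and 2 of the 3 Pdgfd probe sets all lie below the DsRed-negative ones, and those of Pdgfa and Pdgfb overlap with them.

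Pdgfa encodes the A chain, the ligand most often assigned to epithelium. Its brightest probe set (1449187_at) had a deposited signal of 4952, 4067 and 3054 in DsRed-negative arrays 1, 2 and 5, and 2187, 3255 and 1918 in the DsRed-positive arrays of the same numbers. The groups overlapped, since DsRed-positive 2 exceeded DsRed-negative 5. The normalized signal was 12.03 ± 0.33 (SD, n = 3) against 11.22 ± 0.41 in DsRed-positive cells, a log2 change of -0.81 ± 0.37 (SE, 95% interval -1.67 to 0.05, adjusted p = 0.182 by limma). The other Pdgfa probe set (1418711_at) had 584, 1068 and 799 against 1333, 1016 and 507, and a change of 0.33 ± 0.44 (interval -0.70 to 1.35, adjusted p = 0.654 by limma). The probe sets thus differed in sign, and neither was called. All 6 arrays lay above the control level on both, so Pdgfa signal was present in both cell classes.

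Pdgfb encodes the B chain, the ligand of endothelium and platelets that recruits pericytes. Its brighter probe set (1450413_at) was dim in all arrays, with 337, 592 and 224 in DsRed-negative and 121, 210 and 143 in DsRed-positive cells. On the normalized scale this was 8.41 ± 0.61 (SD, n = 3) against 7.88 ± 0.34, a change of -0.53 ± 0.42 (SE, interval -1.50 to 0.44, adjusted p = 0.432 by limma). DsRed-negative 5 lay at or below its control level, and the groups overlapped. The other probe set (1450414_at) did not pass the filter, with deposited signal from 33.3 to 376.7 in DsRed-negative and 14.1 to 168.4 in DsRed-positive arrays, and 2 arrays of each group at or below the control level. Signal this near the control level leaves room for a change of Pdgfb that these arrays could not show.

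Pdgfc encodes a ligand that binds PDGFRA once its CUB domain is removed. On its brightest probe set (1449351_s_at) the DsRed-negative arrays gave 32930, 22043 and 34768, and the DsRed-positive arrays 817, 106 and 243. All DsRed-positive arrays were below all DsRed-negative ones, with array 1 the highest of its group. The normalized means were 14.78 ± 0.32 (SD, n = 3) and 8.53 ± 1.18, a log2 change of -6.24 ± 0.59 (SE, adjusted p = 0.000537 by limma). The other probe set (1419123_a_at), with 30717, 29709 and 49223 against 746, 51.9 and 242, fell by 6.77 ± 0.70 on the log2 scale (adjusted p = 0.000757). DsRed-positive 2 lay at or below its control level on both, and raising it to that level gave a fold of 74.5 and 91.1 in place of 75.7 and 109.3.

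Pdgfd encodes the CUB-domain ligand that binds PDGFRB. Its brightest probe set (1456532_at) read 22186, 18445 and 8397 in DsRed-negative cells and 219, 4.62 and 49.0 in DsRed-positive cells. The groups were far apart, and DsRed-positive 2 and 5 were at or below the control level. The means were 13.90 ± 0.71 (SD, n = 3) and 6.85 ± 1.42, a change of -7.05 ± 0.73 (SE, adjusted p = 0.000771 by limma). With values below the control level raised to it, the fold was 70.0 in place of 132.4. A dimmer probe set (1426319_at) read 971, 1445 and 1074 against 68.7, 7.85 and 4.60, and was at least 6.36-fold lower (adjusted p = 0.00120 by limma), since all 3 DsRed-positive arrays were at or below the control level. The remaining Pdgfd probe set (1446691_at) did not follow them. It read 51.7, 368 and 202 against 88.9, 182 and 229, with a change of 0.44 ± 0.56 (interval -0.85 to 1.74, adjusted p = 0.631 by limma), and 2 DsRed-negative arrays and 1 DsRed-positive array were at or below the control level.

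Pdgfra encodes the alpha receptor, a usual marker of fibroblasts and of interstitial cells in the bladder wall. Its brightest probe set (1421917_at) gave 22415, 17910 and 32906 in DsRed-negative and 221, 23.4 and 223 in DsRed-positive arrays. No value of one group reached the other. The means were 14.48 ± 0.36 (SD, n = 3) and 7.57 ± 1.22, a change of -6.91 ± 0.61 (SE, adjusted p = 0.000399 by limma), or 120-fold, and 87.2-fold with DsRed-positive 2 raised to its control level. A second probe set (1438946_at) read 8676, 7554 and 5591 against 53.4, 134 and 13.8 and fell by 6.09 ± 0.52 on the log2 scale (adjusted p = 0.000346 by limma). DsRed-positive 1 and 5 were at or below the control level there, and the fold was 39.9 with values raised to it, in place of 68.2. The dimmest (1421916_at) read 394, 369 and 513 against 33.5, 42.0 and 77.8. There all 3 DsRed-positive arrays were at or below the control level, and the signal was at least 2.17-fold lower (adjusted p = 0.00977 by limma).

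Pdgfrb encodes the beta receptor of pericytes, smooth muscle and fibroblasts, and was the member with the least spread in DsRed-negative cells. Its brightest probe set (1436970_a_at) gave 12035, 10122 and 11339 there and 111, 22.1 and 64.1 in DsRed-positive cells. DsRed-positive 1 was the highest of its group, and DsRed-positive 2 and 5 were at or below the control level. The DsRed-negative mean was 13.50 ± 0.08 (SD, n = 3) and the DsRed-positive mean 6.87 ± 0.72, a change of -6.63 ± 0.43 (SE, adjusted p = 0.000117 by limma). The fold was 98.7, or 63.2 with values raised to the control level. The other probe set (1417148_at) read 2364, 2514 and 2562 against 25.4, 27.9 and 38.0, all 3 of the latter at or below the control level, and was at least 14.4-fold lower (adjusted p = 0.000106 by limma). In RNA from many cells, fewer cells of a type and less RNA per cell cannot be told apart.

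**Figure D2:**
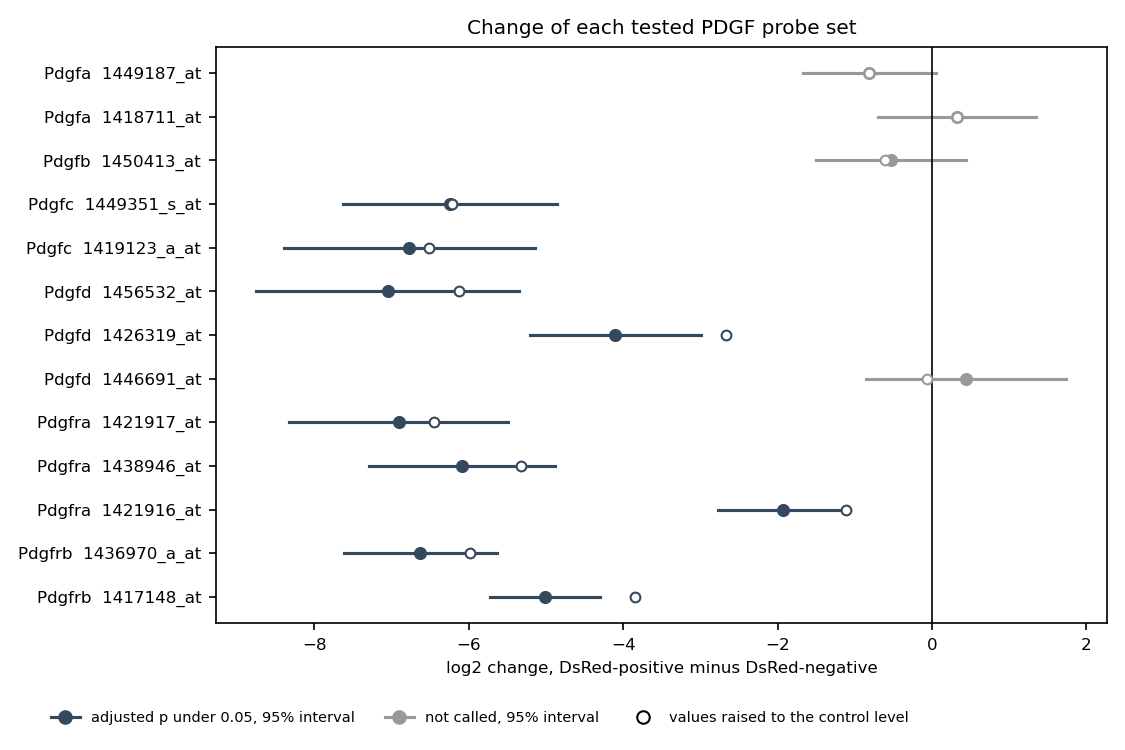
Log2 change of the 13 tested PDGF probe sets, DsRed-positive minus DsRed-negative, with the 95% interval of the limma fit; open circles give the difference of means with values below the control level raised to it. The 9 called probe sets lie left of 0 in both forms, from -1.93 to -7.05 as fitted, and the intervals of the other 4 include 0.

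The sizes of the changes were compared between members within arrays, as the log2 difference of their brightest probe sets. There were 15 pairs. For the 8 pairs of 1 called and 1 uncalled member, the difference follows from the calls themselves, and no p is given for it. Their shifts between the cell classes were 5.43 to 6.52. Among the 4 called members, the 6 shifts were 0.14 to 0.81 in size and the groups overlapped in each, with a two-sided exact permutation p from 0.3 to 0.8 (0.45 to 0.8 adjusted over 15 pairs). Pdgfa against Pdgfb shifted by -0.28 (exact permutation p = 0.4, adjusted 0.545). The adjustment also counted the 8 pairs above, whose p was fixed by the calls, and this lowers the adjusted values. Each of the 4 called members had 1 or 2 DsRed-positive arrays at or below the control level, so shifts among them rest partly on such values. The smallest p that 3 arrays against 3 can give is 0.1, and a p that misses the threshold does not show that the members changed alike.

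The profiles most like each member were found by the root mean square distance of centred log2 values over the 6 arrays, among genes that are not members. For Pdgfra these were Lbp (0.20), Igf1 (0.27) and Adamts4 (0.32). For Pdgfrb they were Tmem204 (0.27), Dkk3 (0.28) and Fbln1 (0.30). Pdgfc had Niban1 (0.42), Dkk3 (0.44) and Fbln1 (0.51) nearest, and Pdgfd had Adamts4 (0.51), Dkk2 (0.55) and Ctsk (0.56). Pdgfa lay nearest to Ext2 (0.10), Rnf14 (0.12) and Trip6 (0.12), and Pdgfb to Macf1 (0.11), Cables2 (0.11) and Dnmt3a (0.12). Between members, the distances among the 4 called genes were 0.38 to 0.74, and Pdgfa was 0.31 from Pdgfb. Distances of genes that fell carry mostly the group difference and the spread of dim DsRed-positive values.

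Most tested markers of fibroblasts, smooth muscle, pericytes and endothelium fell with the 4 called members. Fewer of the macrophage, platelet and Schwann cell markers did. Over all genes tested, 11.3% were called lower and 9.21% higher. All 8 fibroblast markers fell, with a median log2 change of -6.10, and their mean level was 15.86 to 16.19 in DsRed-negative and 9.98 to 10.41 in DsRed-positive arrays. Of the tested markers 4 of 5 of smooth muscle fell (11.36 to 12.07 against 7.20 to 7.78), as did 4 of 6 of pericytes (11.23 to 11.77 against 9.09 to 9.67), 5 of 6 of endothelium (9.89 to 10.54 against 7.86 to 8.04) and 3 of 7 of macrophages (10.09 to 10.46 against 8.12 to 9.11). The levels in brackets are means over all listed markers on the array, tested or not, 6 for smooth muscle and 8 for endothelium. The pericyte marker Rgs5 rose instead (1.56, adjusted p = 0.0439 by limma). Pecam1, which defines endothelium, did not pass the filter, and was at or below the control level on 2 arrays of each group. Platelet genes were split, with Pf4 lower (-2.27), Ppbp higher (4.76) and 3 not called, and of 3 Schwann cell genes Mbp was higher (1.40) and 2 were not called. All 8 urothelial markers rose, from 10.45 to 11.40 in DsRed-negative to 14.57 to 14.76 in DsRed-positive arrays. Among them are the uroplakin genes Upk1a, Upk1b, Upk2 and Upk3a. The sample titles name the classes by uroplakin, so the rise of these genes may not be independent of how the classes were parted. The DsRed-negative cells, labelled epithelial, thus held both urothelial and fibroblast transcripts. The mean fibroblast marker level in DsRed-positive arrays, 9.98 to 10.41, was also above the control level, although Thy1 was at or below it on all 3. The part of these cell types in the PDGF results was not tested.

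**Figure D3:**
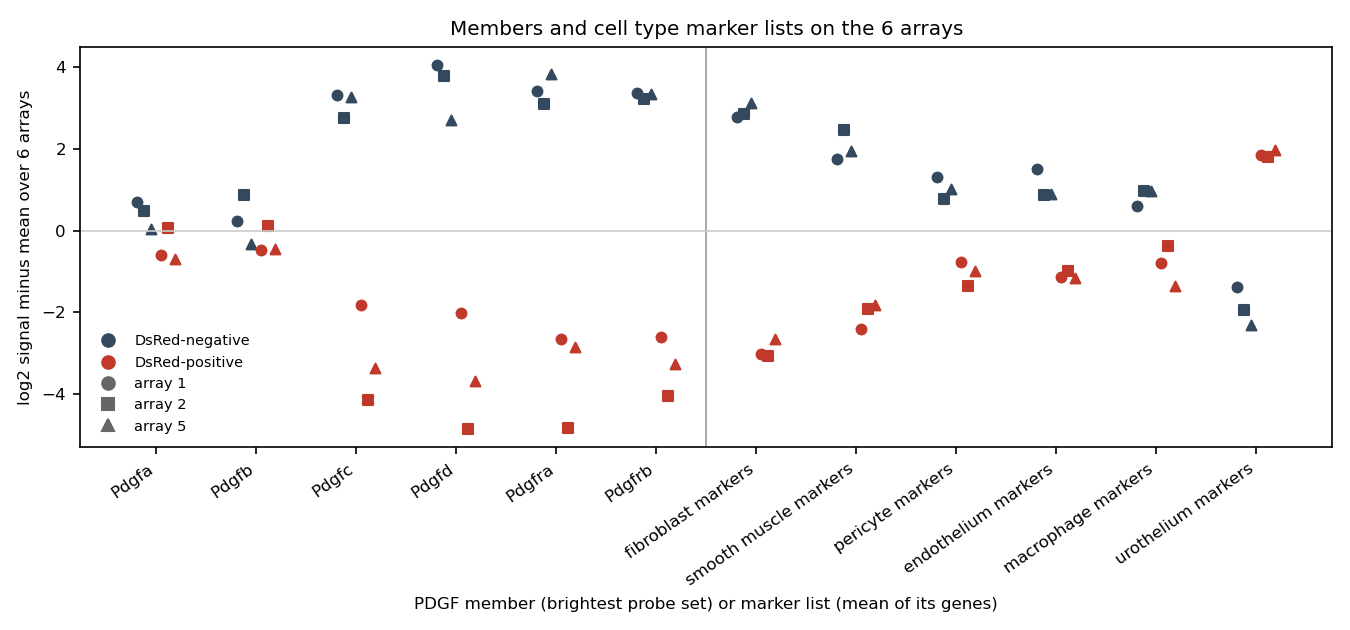
Log2 signal on each array minus its mean over the 6 arrays, for the brightest probe set of each PDGF member and for the mean of 6 marker lists. Pdgfc, Pdgfd, Pdgfra and Pdgfrb fall on the same side as the fibroblast markers (median change -6.10), and Pdgfa and Pdgfb stay near 0.

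Other genes of the pathway were read from 6 lists. Of 71 listed genes 62 were tested, and 4 were higher, 18 lower and 40 not called, with a median log2 change of -0.58. Over all 14222 genes tested, 20.5% were called, 9.21% higher and 11.3% lower, with a median of 0.04. Without DsRed-positive 1, 2 or 5, the higher genes over the array numbered 598, 665 and 725 in place of 1310. Of the 22 pathway calls, 15 were kept in every fit without 1 array, and 11 in every alternative run. With each array centred on its median, 8 of the listed genes were higher and 15 lower. These calls are of the brightest tested probe set, and other probe sets of a gene did not always share them. Called lower were 1 of 3 tested probe sets for Cblb and for Crkl and 1 of 5 for Spred1. The number was 1 of 2 for Grb10, Fyn, Lrp1 and Stat5b, and 2 of 4 for Spry4. It was 2 of 3 for Pcsk5, Sparc, Csf1r and Csf1, and 3 of 4 for Nrp1. All were called lower for Socs3 and Vegfc (3 of 3 each) and for Vegfa (2 of 2).

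Proteins that process or bind PDGFs divided. Of 11 such genes 4 fell, 1 rose and 6 were not called (median -0.62). Sparc, a matrix protein that binds PDGF-B, fell by 6.79 ± 0.35 on the log2 scale (SE, adjusted p = 7.52e-05 by limma). Pcsk5, a convertase of the furin family, fell (-6.20 ± 0.51), as did Nrp1, a co-receptor for several growth factors (-5.74 ± 0.50), and Lrp1, an endocytic receptor that associates with PDGFRB (-2.47 ± 0.38). Pcsk5 was at or below the control level on 2 DsRed-positive arrays, so the size of its change is not fixed. Lrp1 lost its call without both arrays numbered 5 (adjusted p = 0.0518 by limma). St14, or matriptase, an epithelial surface protease that can cleave PDGF-D, went the other way, at 3.45 ± 0.38 (adjusted p = 0.00105 by limma). Plat, which activates PDGF-C, was bright in both groups (14.18 and 14.43) with a change of 0.25. Plau, which activates PDGF-D, changed by -1.78 on its brightest probe set (adjusted p = 0.132 by limma), but 1 of its 2 tested probe sets was called lower. Plat and Plau were chosen after their values were seen.

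Of 26 tested genes of receptor-proximal signalling, which act directly below the receptors, 4 fell, 0 rose and 22 were not called, and the median change was 0.10. Over all genes tested 20.5% were called and 11.3% were lower, so the count is near the background and shows nothing particular to these genes. Grb10, an adaptor that binds activated receptors, fell by 3.90 ± 0.47 on the log2 scale (SE, adjusted p = 0.00150 by limma) and Fyn, a Src family kinase, also fell (-3.49 ± 0.62), with 1 DsRed-positive array at or below the control level and no call without both arrays numbered 1 (adjusted p = 0.112 by limma). Stat5b (-1.76) and the adaptor Crkl (-1.22) were also lower. Crkl lost its call in all 6 fits without 1 array (adjusted p up to 0.134 without DsRed-positive 5), and Stat5b kept its call in 1 of 6 (up to 0.109 without DsRed-positive 2).

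Of 8 genes that turn receptors off, 3 fell and 5 were not called (median -1.16). Socs3, a feedback inhibitor induced by cytokines, fell by 4.87 ± 0.32 on the log2 scale (SE, adjusted p = 0.000130 by limma). The ubiquitin ligase Cblb changed by -2.17, with an adjusted p of 0.0207 by limma that became 0.0517 without DsRed-negative 5. Socs1 was at least 1.61-fold lower (adjusted p = 0.0446), and kept its call in 1 of the 3 fits without 1 array in which it passed the filter (up to 0.158 without DsRed-positive 1). Feedback inhibitors of the ERK pathway, which lies below many receptors, split evenly. Dusp4 (3.15 ± 0.44) and Dusp5 (2.72 ± 0.35), phosphatases that act on ERK in the nucleus, rose, Spry4 (-2.31 ± 0.42) and Spred1 (-1.48 ± 0.41) fell, and 4 of the 8 were not called. Spry4 lost its call without both arrays numbered 1 or both numbered 5 (adjusted p = 0.0854 and 0.0869 by limma). Spred1 kept its call in 1 of 6 fits without 1 array (adjusted p up to 0.148 without DsRed-positive 1).

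Structural relatives of the members were compared last. VEGFs share the cystine-knot fold of the PDGFs, and of 5 such genes 3 fell, 1 rose and 1 was not called (median -2.42). Vegfc, a growth factor for lymphatic vessels, was at least 9.50-fold lower (adjusted p = 0.00102 by limma), and Vegfa fell from a mean of 13.00 to 10.01 (log2, adjusted p = 0.000919). Pgf (-2.42) lost its call without DsRed-positive 1 or 2 (adjusted p up to 0.0792), and Vegfb (1.82) kept its call in 1 of 6 fits without 1 array (up to 0.150 without DsRed-positive 2). Pgf was at or below the control level on 2 DsRed-positive arrays and Vegfb on 2 DsRed-negative arrays, so the sizes of both changes are not fixed. Other class III receptors, the kinase group to which both PDGF receptors belong, and their ligands gave 2 lower and 2 not called of 4 tested (median -1.61). Csf1r, the receptor of macrophages, fell by 2.14 ± 0.40 on the log2 scale (SE, adjusted p = 0.00958 by limma), and its ligand Csf1 also fell (-3.56 ± 0.34). Csf1r lost its call without both arrays numbered 1 or both numbered 5 (adjusted p = 0.113 and 0.0955 by limma). Kit, the stem cell factor receptor, had a value of -0.75 (adjusted p = 0.369 by limma).

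**Figure D4:**
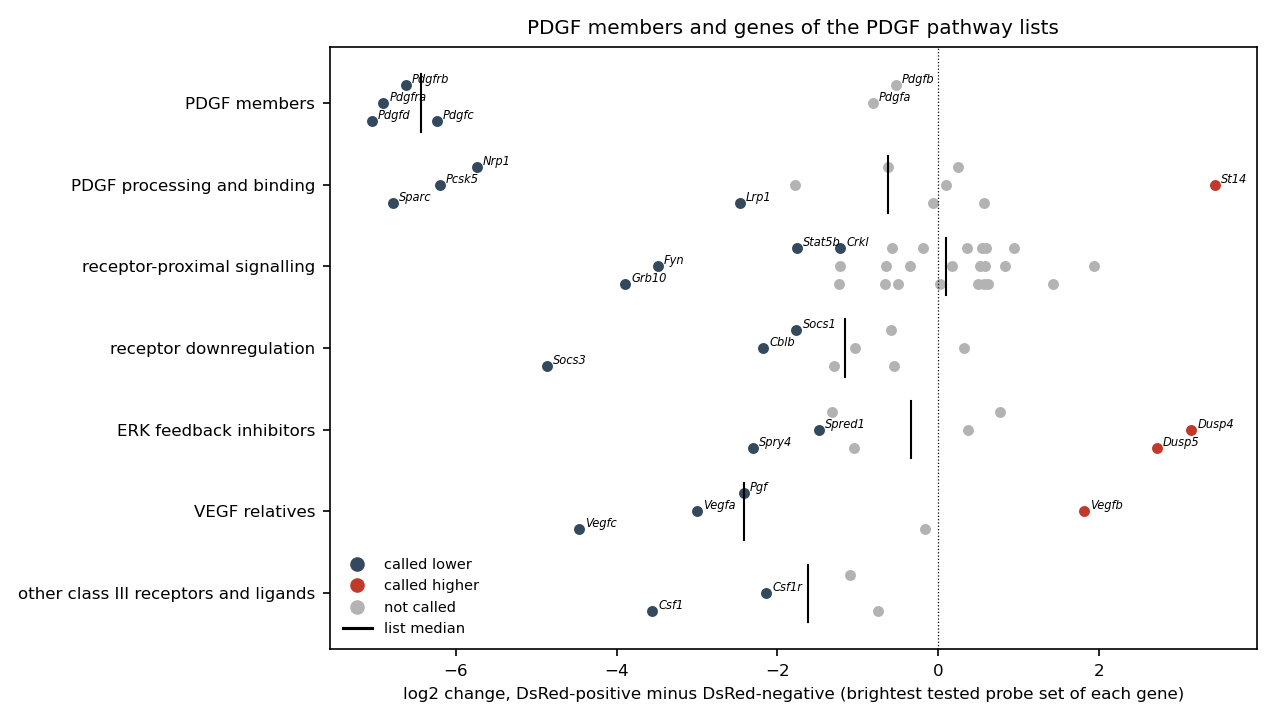
Log2 change of each PDGF member and of the tested genes of 6 pathway lists (brightest tested probe set of a gene; vertical bars are list medians). The 4 called members lie between -6.24 and -7.05, and the 26 genes of receptor-proximal signalling have a median of 0.10.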

How the data were processed

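Amplified RNA (2 rounds, per the labels) was measured on 6 Affymetrix Mouse Genome arrays. The authors deposited linear probe set intensity; GCOS is named in the submitters' processing notes, with settings not given in the sources used here. All 6 arrays shared a 2% trimmed mean of 1500.01. The detection calls were left aside.

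Log2 was taken of the deposited values plus an offset of 39.84, their 20th percentile. Array medians spanned 0.74, over the limit of 0.2, so values were quantile normalized. After removing 64 of 45101 probe sets as controls, 30175 passed a filter on mean signal at its 33rd percentile (7.18). Symbols were updated through gene IDs (34741 of 34945 single-gene probe sets). DsRed-positive was compared with DsRed-negative in R 4.3.3 with limma 3.58.1 (lmFit, eBayes, two-sided, Benjamini-Hochberg, threshold 0.05), tested on simulated data. A gene's value was that of its brightest tested probe set. At least N-fold means against the control level.

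The 6 pathway lists, the 8 marker lists and the members were chosen with earlier results of these data known. Named were all members, up to 4 called genes of each pathway list, genes that went against their list, and the 3 nearest profiles of each member. Plat, Plau and Kit, none of them called, and the sex-linked genes were named outside these rules. Marker lists are given as counts and levels, with some single markers named beside them. Of the 71 pathway genes 7 were not analysed here and 2 did not pass the filter. Alternatives were other scalings, offsets, filters and estimators, the replicate number as a block, mean probe sets, and arrays left out.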

Additional observations from a re-analysis of the deposited data

How the results depend on the processing

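The calls of the brightest Pdgfc, Pdgfd, Pdgfra and Pdgfrb probe sets and the lack of a call for Pdgfa and Pdgfb held in all 19 alternatives. Between 8 and 9 member probe sets were lower in the 18 alternatives that kept single probe sets, and 0 were higher. The dimmest Pdgfra probe set (1421916_at) lost its call without both arrays numbered 1 (adjusted p = 0.103 by limma) or 5 (0.0569), and did not pass a filter at the 50th percentile. Uncalled values changed sign for Pdgfd probe set 1446691_at as deposited (-0.077) and among fits without arrays (-0.11 to 0.86), and for Pdgfa probe set 1418711_at (-0.12 to 0.71). An offset of 1 moved Pdgfd to -8.25, and one at the 50th percentile moved it to -5.52. With the mean of its probe sets Pdgfd changed by -3.57 and Pdgfra by -4.98.

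Pathway genes that were higher numbered 4, but 8 with arrays centred on their medians and 7 with mean probe sets; those lower, 18, were 9 to 15 in fits without 1 array or 1 number. Scaling shifted the median of all tested probe sets from 0.09 to -0.19 as deposited and 0.35 when centred. The deviations of same-numbered arrays from their group means correlated weakly (r = 0.15, 0.04 and 0.05 across probe sets, which are not independent replicates). Both arrays numbered 1 also shared high Xist (15.48 and 15.08, against 8.08 to 8.89 in the others). The labels do not say whether same-numbered arrays share animals, so pairing was not settled and the main fit left the number out. With the replicate number as a block, 9 member probe sets were lower, and 4 pathway genes were higher and 14 lower. For the called members other than Pdgfc probe set 1449351_s_at, where raising values to the control level hardly moved the fold (75.7 to 74.5), signal at or below that level in DsRed-positive arrays limits the size of the change.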
